A study of Homo sapiens with 6 samples.

Results

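The 31 genes of cholesterol and fatty acid synthesis described here were chosen by name, with earlier results of these data known. All 31 were found among the 58825 genes measured. They comprised 14 sterol enzymes, 8 fatty acid enzymes, 3 enzymes that supply acyl-CoA building blocks, 5 genes that control sterol synthesis and 1 sterol carrier. They were measured by RNA sequencing in NCI-H460, a human cell line that the labels call lung adenocarcinoma and that was derived from a large cell lung carcinoma. NC-shRNA cells carried a lentiviral short hairpin RNA (shRNA) that the labels give as directed against GFP, and PRMT5-shRNA cells carried a hairpin against PRMT5, the main arginine methyltransferase that places symmetric dimethyl marks on proteins. Both groups were lentivirus-infected, and the study's methods describe stable knockdown cells kept after puromycin selection. There were 3 libraries per group, described in the study as biological replicates. The study designed 3 hairpins against human PRMT5, the labels do not name the one sequenced, and no second hairpin was measured here, so an effect of PRMT5 loss and one of that hairpin cannot be told apart.

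Cholesterol is built from acetyl-CoA through the mevalonate pathway, whose product squalene is closed into a ring and then trimmed to cholesterol. Fatty acids start from the same acetyl-CoA, which is carboxylated, extended by fatty acid synthase, and then elongated and desaturated. Both routes are transcribed under the sterol regulatory element-binding proteins (SREBPs), which SCAP escorts out of the endoplasmic reticulum and INSIG proteins hold there when sterols are plentiful. SREBF2 encodes the form known mainly for sterol genes and SREBF1 the forms known mainly for fatty acid genes. SREBPs bind sterol regulatory elements in promoters and act together with the CCAAT-binding factor NF-Y and with Sp1, which binds GC boxes.

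Promoter windows, from 250 bases before to 50 bases after a RefSeq start on GRCh38.p14, were matched by symbol to 27 of the 31 genes and gave 38 windows, some of which overlap. FASN, ACAT2, FDFT1 and SQLE had no entry. The 4 windows below are shown because they hold the motif matches and belong to the sterol enzyme with the smallest p, the window with the most CCAAT matches, the SREBP gene with a sterol element and the member with the highest level per length. HMGCS1 is at chr5:43313363-43313662 on the minus strand, MVK at chr12:109573544-109573843, SREBF2 at chr22:41832855-41833154 and SCD at chr10:100346983-100347282, these 3 on the plus strand. Each is written 5′ to 3′ in the direction of the gene. Capitals mark matches to CCAAT and to the sterol element core CACNCCAC, and a match on the other strand appears as its reverse complement.
HMGCS1: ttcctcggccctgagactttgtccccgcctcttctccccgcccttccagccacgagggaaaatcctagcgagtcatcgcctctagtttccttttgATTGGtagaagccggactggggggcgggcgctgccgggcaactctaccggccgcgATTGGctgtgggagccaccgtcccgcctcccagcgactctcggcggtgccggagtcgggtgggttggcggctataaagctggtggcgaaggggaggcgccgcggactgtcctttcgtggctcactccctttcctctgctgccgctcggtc
MVK: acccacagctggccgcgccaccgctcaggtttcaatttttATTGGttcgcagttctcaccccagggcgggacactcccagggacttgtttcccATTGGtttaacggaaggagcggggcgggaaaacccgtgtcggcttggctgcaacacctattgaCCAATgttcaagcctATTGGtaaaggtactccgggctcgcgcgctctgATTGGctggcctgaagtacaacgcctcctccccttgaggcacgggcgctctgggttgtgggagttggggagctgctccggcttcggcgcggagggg
SREBF2: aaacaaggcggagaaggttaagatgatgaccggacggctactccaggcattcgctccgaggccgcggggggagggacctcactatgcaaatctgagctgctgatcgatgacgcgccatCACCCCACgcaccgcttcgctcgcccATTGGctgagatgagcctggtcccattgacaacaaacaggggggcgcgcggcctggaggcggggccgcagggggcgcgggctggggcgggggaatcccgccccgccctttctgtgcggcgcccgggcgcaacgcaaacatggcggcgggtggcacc
SCD: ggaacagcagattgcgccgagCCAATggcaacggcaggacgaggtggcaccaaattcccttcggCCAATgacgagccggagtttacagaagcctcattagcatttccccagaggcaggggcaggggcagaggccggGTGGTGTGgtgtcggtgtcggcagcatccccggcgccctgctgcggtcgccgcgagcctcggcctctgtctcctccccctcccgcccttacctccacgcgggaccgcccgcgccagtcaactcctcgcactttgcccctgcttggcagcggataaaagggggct

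CCAAT, searched on both strands, was found in 23 of the 38 windows (60.5%) and in 19 of the 27 genes, against 34.6% of all 35116 windows in the RefSeq set. Among sterol enzymes it was found in 11 of 16 windows (68.8%), and among fatty acid enzymes in 6 of 10 (60.0%). The MVK window held 5 matches, and the HMGCS1 window 2, which began 155 and 100 bases before the start. The GC box GGGCGG was found on either strand in 34 of the 38 windows (89.5%), against 45.0% of all windows. The longer sterol element TCACNCCAC was found in 1 of the 38 windows, that of SREBF2 from 133 bases before the start, against 1.13% of all windows. Its core CACNCCAC, which every match to the longer motif contains, was found in 7 windows (18.4%) of 6 genes, namely SREBF2, SCD, IDI1, INSIG1, ACACA and SC5D, against 5.87% of all windows. The 2 SC5D windows overlap and share 1 match. These matches describe letters in the windows, and no binding was measured.

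The library totals ran from 53531257 to 70518401 counts, and 20295 genes, all 31 members among them, were kept by the filter on low counts and tested. Levels are given as CPM, counts scaled to the same library total after TMM normalization, and levels of different genes are compared only as FPKM, which is per length. PRMT5 was at 143, 127 and 128 CPM in the NC-shRNA libraries and at 45.8, 45.6 and 38.3 CPM in the PRMT5-shRNA libraries. The groups did not overlap, and the log2 fold change, PRMT5-shRNA over NC-shRNA, was −1.62 (SE 0.0943, edgeR adjusted p = 0.0063). PRMT5 fell in PRMT5-shRNA cells, and the fold is from RNA, in which fewer expressing cells and less RNA per cell cannot be told apart. Over all genes tested, an edgeR adjusted p under 0.05 was reached by 10 higher genes (0.0493%) and 4 lower genes (0.0197%), and the median log2 fold change was 0.0075.

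None of the 31 members reached an edgeR adjusted p under 0.05, in either direction, and their adjusted p ranged from 0.106 to 0.99. At an unadjusted p under 0.05 in the same edgeR fit, 10 members were lower (background 6.29% of genes) and 0 higher (background 6.54%). The 10 were HMGCS1, SQLE, CYP51A1, MVK, MVD, SC5D, ACAT2, SCD, FASN and ACLY. DESeq2 called 3 members lower after adjustment, HMGCS1, SQLE and CYP51A1, and 0 higher, beside 1.36% of genes called lower and 1.81% called higher. Without PRMT5-shRNA replicate 3 the edgeR count of 10 became 5, namely HMGCS1, SQLE, CYP51A1, MVK and MVD. Over all genes, in either direction, 2605 of 20295 passed that threshold with all libraries and 1963 of 21260 without this one. These totals pool both directions and are no background for lower genes alone. In CPM, 13 members were lower in every PRMT5-shRNA library than in any NC-shRNA library (background 10.7%) and 2 were higher in every one (background 11.0%). In the deposited FPKM the same counts were 9 lower (background 6.59%) and 5 higher (background 14.7%), as FASN, ELOVL5, LSS and DHCR7 then overlapped and SREBF1, SCAP and FADS1 joined SREBF2 and ACSS2 on the higher side. The sign of the log2 fold change was negative for 24 of the 31 members, against 48.8% of all genes (51.2% were positive). The differences were small, and no member except IDI1 had a log2 fold change beyond 0.5 in size.

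**Figure D1:**
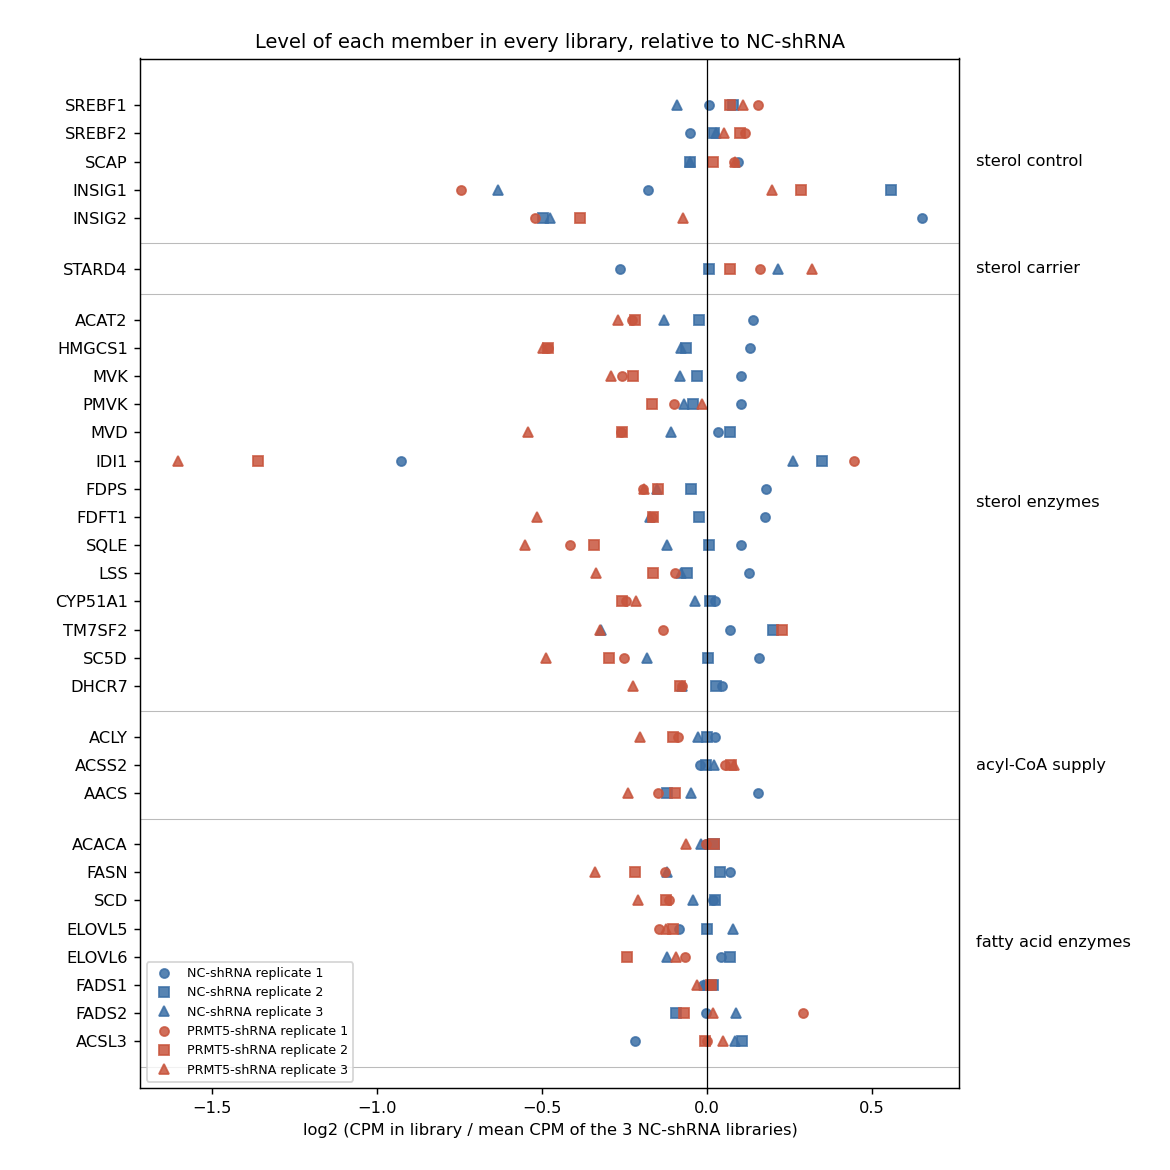
Level of each of the 31 members in each of the 6 libraries, as log2 of its CPM over the mean CPM of the 3 NC-shRNA libraries, ordered by role. Blue marks are NC-shRNA and red marks PRMT5-shRNA libraries, with 1 shape per replicate number. For 9 of the 14 sterol enzymes all red marks lie left of all blue marks, while the marks of IDI1 and INSIG1 are scattered in both groups. For INSIG2 the mark of NC-shRNA replicate 1 lies right of all the others.

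Of the 5 sterol control genes, SREBF1, SREBF2 and SCAP lay close to their NC-shRNA levels. SREBF2, the SREBP gene known mainly for sterol synthesis, was at 160, 168 and 169 CPM in NC-shRNA and 180, 178 and 172 CPM in PRMT5-shRNA libraries. Its groups did not overlap, the PRMT5-shRNA side being the higher, with a log2 fold change of 0.09 (SE 0.053, edgeR adjusted p = 0.523). SREBF1 was at 68.0, 71.5 and 63.6 CPM against 75.4, 71.1 and 73.0 CPM, so the groups overlapped by 1 library, with a log2 fold change of 0.11 (SE 0.0677, edgeR adjusted p = 0.531). With single libraries left out, that of SREBF1 ran from 0.07 to 0.15. SCAP, the escort, had a log2 fold change of 0.06, or 0.04 to 0.11 with single libraries left out. Its CPM lay between 55.3 and 61.1 in NC-shRNA and between 58.0 and 60.8 in PRMT5-shRNA libraries.

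Both INSIG genes, whose products retain the SCAP and SREBP complex, differed more between replicates than between groups. INSIG1 was at 49.8, 83.1 and 36.4 CPM in NC-shRNA and 33.7, 68.9 and 64.7 CPM in PRMT5-shRNA libraries. The highest and the lowest value of each group lay 2.28 and 2.04 times apart, and the log2 fold change was −0.02 (SE 0.362). INSIG2 was at 14.9, 6.71 and 6.81 CPM against 6.60, 7.25 and 9.01 CPM, with NC-shRNA replicate 1 above all the others. Its log2 fold change of −0.31 (SE 0.332) turned to 0.17 without that library, and that of INSIG1 became 0.37 without NC-shRNA replicate 2. STARD4, which carries cholesterol between membranes, was at 132, 159 and 184 CPM in NC-shRNA and 177, 166 and 198 CPM in PRMT5-shRNA libraries. The STARD4 groups overlapped, with a log2 fold change of 0.19 (SE 0.128) that was 0.0704 without NC-shRNA replicate 1 and 0.31 without NC-shRNA replicate 3.

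The 14 sterol enzymes all had negative log2 fold changes, between −0.53 and −0.06, with a median of −0.25 beside 0.0075 over all genes tested, and of these signs only that of TM7SF2 turned when single libraries were left out. Of the 14, 7 had an unadjusted edgeR p under 0.05, all lower (background 6.29%). Between groups, 9 did not overlap in CPM (background 10.7%) and 7 in FPKM (background 6.59%), again all lower. The median was −0.24 without IDI1, the enzyme with the widest spread. Summed over the 14 enzymes, the level was 1756, 1639 and 1540.4 CPM in NC-shRNA and 1429, 1378 and 1280.2 CPM in PRMT5-shRNA libraries. NC-shRNA replicate 1 held the highest value of 11 of the 14 enzymes, and PRMT5-shRNA replicate 3 the lowest value of 11. The enzymes therefore share these libraries' deviations and do not count as 14 separate observations.

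The entry steps of the pathway held the member with the smallest p. HMGCS1, which condenses acetoacetyl-CoA with acetyl-CoA to HMG-CoA, was at 192, 168 and 166 CPM in NC-shRNA and 126, 126 and 124 CPM in PRMT5-shRNA libraries. The 3 PRMT5-shRNA values lay within 1.01 times of each other and all below the NC-shRNA values. The level was 0.714 of that in NC-shRNA cells, a log2 fold change of −0.49 (SE 0.0706, unadjusted edgeR p = 2.45e-04, adjusted p = 0.106, exact permutation p over the 6 libraries = 0.1). DESeq2's adjusted p was 3.24e-05, and the log2 fold change lay between −0.53 and −0.40 over the 16 alternative settings. HMGCS1 lies on chromosome 5 from 43289395 to 43313512, and its promoter window above is the one with both CCAAT matches. ACAT2, the cytosolic thiolase that makes acetoacetyl-CoA, was at 179, 160 and 149 CPM against 139, 140 and 135 CPM. ACAT2 did not overlap between groups, with a log2 fold change of −0.24 (SE 0.0777, edgeR adjusted p = 0.303). It shares exon sequence with TCP1 on the other strand, which held 11066 to 16352 counts per library, against 7580 to 12031 for ACAT2. How counting treated strand is not given, and the part of TCP1 in the ACAT2 values was not tested.

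Of the mevalonate kinases and the decarboxylase, MVK and MVD did not overlap between groups and PMVK did. MVK, which phosphorylates mevalonate, was at 50.2, 45.7 and 44.1 CPM in NC-shRNA and 39.1, 40.0 and 38.2 CPM in PRMT5-shRNA libraries. MVD, which decarboxylates the diphosphate to isopentenyl diphosphate, was at 34.6, 35.6 and 31.4 CPM against 28.3, 28.3 and 23.3 CPM. Both were lower in every PRMT5-shRNA library, with log2 fold changes of −0.26 (SE 0.0752) for MVK and −0.35 (SE 0.107) for MVD, and edgeR adjusted p of 0.272 and 0.287. MVK shares exon sequence with MMAB on the other strand, which held 2382 to 3275 counts per library, against 2134 to 3373 for MVK. The intermediate kinase PMVK was at −0.09 on the log2 fold change scale (SE 0.0836), and between −0.13 and −0.04 when single libraries were left out.

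IDI1, which isomerises isopentenyl diphosphate, had the largest log2 fold change of the 31 in size, −0.53, and the largest error (SE 0.593, edgeR adjusted p = 0.751). It was at 31.2, 75.8 and 71.3 CPM in NC-shRNA and 81.0, 23.1 and 19.5 CPM in PRMT5-shRNA libraries. The highest value of all was in PRMT5-shRNA replicate 1, NC-shRNA replicate 1 was low, and the values lay 2.43 times apart in NC-shRNA and 4.14 times apart in PRMT5-shRNA. Its log2 fold change ran from −1.48 to −0.19 when single libraries were left out. The antisense gene IDI2-AS1, the only one with an exon overlap, held between 0 and 13 counts per library, and IDI1 between 1124 and 5253.

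FDPS, which makes farnesyl diphosphate, and FDFT1, which joins 2 of these into squalene, overlapped between groups. FDPS was at 321, 274 and 255 CPM in NC-shRNA and 248, 256 and 248 CPM in PRMT5-shRNA libraries (log2 fold change −0.18, SE 0.0875, and −0.08 without NC-shRNA replicate 1). For FDFT1 the CPM ran from 199.7 to 254 in NC-shRNA and from 158 to 201 in PRMT5-shRNA libraries (log2 fold change −0.27, SE 0.126, and −0.35 to −0.17 with single libraries left out). In both, a single NC-shRNA library lay within the range of the PRMT5-shRNA libraries.

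SQLE, the squalene epoxidase that is a rate-limiting step of the later pathway, was at 137, 128 and 117 CPM in NC-shRNA and 95.4, 100.5 and 86.8 CPM in PRMT5-shRNA libraries. The groups were clearly apart, at 0.74 of the NC-shRNA level, with a log2 fold change of −0.43 (SE 0.0845, unadjusted edgeR p = 0.0014, adjusted p = 0.181, exact permutation p = 0.1). DESeq2 gave SQLE an adjusted p of 0.00374. LSS, which closes the epoxide into lanosterol, was at 111, 97.4 and 96.3 CPM against 95.1, 90.8 and 80.5 CPM. LSS was lower in every PRMT5-shRNA library by a small margin, with a log2 fold change of −0.19 (SE 0.0898, edgeR adjusted p = 0.42). For LSS this ran from −0.25 to −0.13 when single libraries were left out.

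CYP51A1, the demethylase that takes lanosterol onward, was among the steadiest genes within groups. It was at 237, 235 and 228 CPM in NC-shRNA and 197, 195 and 201 CPM in PRMT5-shRNA libraries. The groups lay apart, with a log2 fold change of −0.24 (SE 0.0491, unadjusted edgeR p = 0.00187, adjusted p = 0.185, DESeq2 adjusted p = 0.0148, exact permutation p = 0.1). The gene AC000120.3 shares exon sequence on the same strand and held 434 counts in PRMT5-shRNA replicate 3, 47 in replicate 2, 21 in NC-shRNA replicate 3 and 0 elsewhere. With these counts added the CYP51A1 level was 237, 235 and 228 CPM against 197, 196 and 209 CPM, still without overlap. CYP51A1 also has processed pseudogenes, to which the authors' counting could have given some of its reads.

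Among the later sterol enzymes, SC5D, a desaturase of the sterol ring, was at 53.5, 48.0 and 42.2 CPM in NC-shRNA and 40.3, 39.0 and 34.2 CPM in PRMT5-shRNA libraries. SC5D was lower in every PRMT5-shRNA library (log2 fold change −0.34, SE 0.111, edgeR adjusted p = 0.302). DHCR7, which reduces 7-dehydrocholesterol to cholesterol, was at 113, 112 and 104 CPM against 104, 104 and 93.9 CPM. The DHCR7 groups were separated only by a small gap, with a log2 fold change of −0.13 (SE 0.068, edgeR adjusted p = 0.482). For DHCR7 this ran from −0.16 to −0.08 when single libraries were left out. TM7SF2, a sterol reductase, was the least abundant member at 0.75 FPKM in both groups, with a log2 fold change of −0.06 (SE 0.219). It shares exon sequence on the same strand with VPS51, which held 1754 to 2445 counts per library, against 144 to 257 for TM7SF2.

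**Figure D2:**
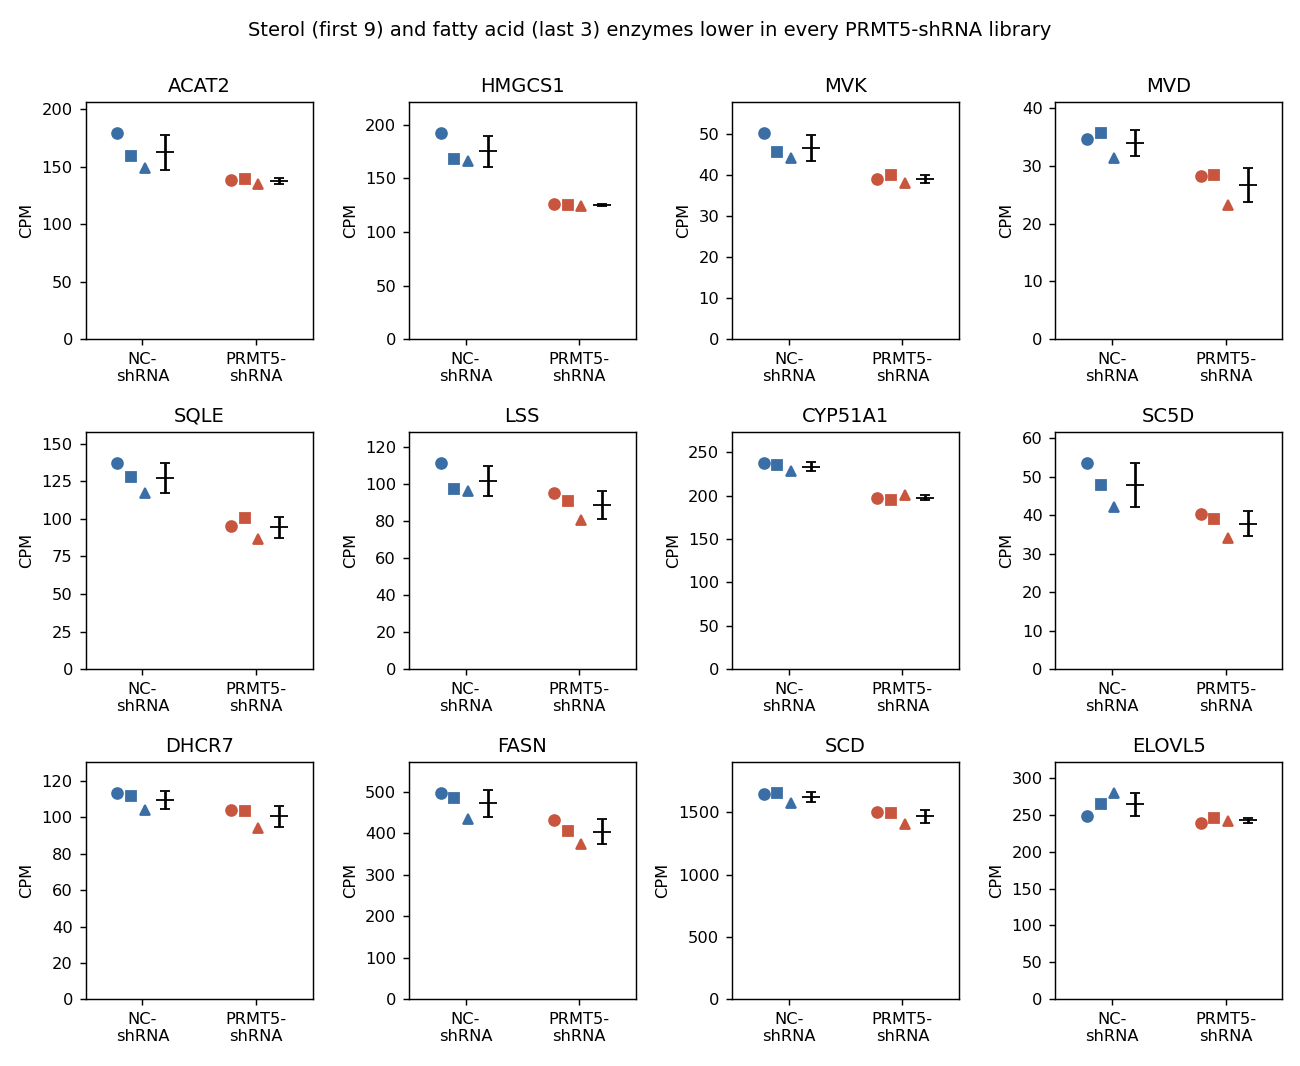
CPM in each library for the 9 sterol enzymes and the 3 fatty acid enzymes that were lower in every PRMT5-shRNA library than in any NC-shRNA library. Points are libraries, with NC-shRNA in blue and PRMT5-shRNA in red, and the black lines give the mean and SD of 3 libraries, on axes that start at 0. In FPKM the groups of LSS, DHCR7, FASN and ELOVL5 overlap. The gap between groups is widest, relative to the level, for HMGCS1 and SQLE and narrow for DHCR7, FASN, LSS and ELOVL5.

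None of the 3 enzymes that supply acyl-CoA passed the adjusted threshold of edgeR or DESeq2. Of the 3, 1 had an unadjusted edgeR p under 0.05, ACLY, which was lower (background 6.29%). ACLY, which splits citrate into cytosolic acetyl-CoA, was at 555, 546 and 535 CPM in NC-shRNA and 514, 508 and 474 CPM in PRMT5-shRNA libraries. It did not overlap between groups and had a log2 fold change of −0.13 (SE 0.0527, edgeR adjusted p = 0.373). ACSS2, which makes acetyl-CoA from acetate, was at 92.7, 93.8 and 95.3 CPM against 97.6, 98.8 and 99.4 CPM, with a log2 fold change of 0.07 (SE 0.0517, edgeR adjusted p = 0.617). ACSS2 was thus higher in every PRMT5-shRNA library, by less than its edgeR test could resolve. AACS, which activates acetoacetate, overlapped between groups at a log2 fold change of −0.16 (SE 0.0872). For AACS this ran from −0.22 to −0.08 when single libraries were left out.

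The 8 fatty acid enzymes lay nearer to no difference, their log2 fold changes having a median of −0.07 and running from −0.23 to 0.09. Of the 8, 6 had a negative sign, 2 had an unadjusted edgeR p under 0.05 (FASN and SCD, both lower, background 6.29%), and 3 did not overlap between groups in CPM (FASN, SCD and ELOVL5, all lower, background 10.7%). In FPKM only SCD of these stayed apart (background 6.59%), and FADS1 lay apart on the higher side (background 14.7%). The count of 2 became 0 without NC-shRNA replicate 2, 0 without PRMT5-shRNA replicate 3, 1 without PRMT5-shRNA replicate 2 and 0 in the limma fits on FPKM. FASN, the synthase that builds palmitate, was at 497, 486 and 435 CPM in NC-shRNA and 433, 406 and 373 CPM in PRMT5-shRNA libraries. The FASN groups were apart by a narrow gap, between NC-shRNA replicate 3 and PRMT5-shRNA replicate 1, with a log2 fold change of −0.23 (SE 0.0781, edgeR adjusted p = 0.316). SCD, the desaturase that makes oleate, was at 1644, 1651 and 1577 CPM against 1500.1, 1492 and 1406 CPM. SCD was lower in every PRMT5-shRNA library, at 0.902 of the NC-shRNA level, with a log2 fold change of −0.15 (SE 0.0494, edgeR adjusted p = 0.307).

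ELOVL5, an elongase of polyunsaturated fatty acids, was at 249, 264 and 279 CPM in NC-shRNA and 239, 246 and 242 CPM in PRMT5-shRNA libraries. The ELOVL5 groups were separated by a small gap, with a log2 fold change of −0.12 (SE 0.0588, edgeR adjusted p = 0.43). ELOVL6, which elongates palmitate, overlapped at −0.13 (SE 0.0852), or −0.19 to −0.08 when single libraries were left out. ACACA, the acetyl-CoA carboxylase that commits carbon to fatty acids, lay between 270 and 277 CPM in NC-shRNA and between 261 and 277 CPM in PRMT5-shRNA libraries (log2 fold change −0.01, SE 0.0498). The desaturase FADS1 had a log2 fold change of −0.00 (SE 0.0456), its partner FADS2 one of 0.09 (SE 0.108), and ACSL3, which activates long-chain fatty acids, one of 0.01 (SE 0.0926). For ACACA, FADS1, FADS2 and ACSL3 the sign turned under at least 1 alternative setting, for ACACA and FADS1 also with FPKM in place of counts. In those FPKM fits the median log2 fold change over all genes was 0.013 to 0.05. FADS2 shares exon sequence on the same strand with FEN1, which held 9780 to 16013 counts per library, against 3047 to 3503 for FADS2. FADS1 shares it with MIR1908, which held 0 to 5 counts, against 25026 to 32151 for FADS1.

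**Figure D3:**
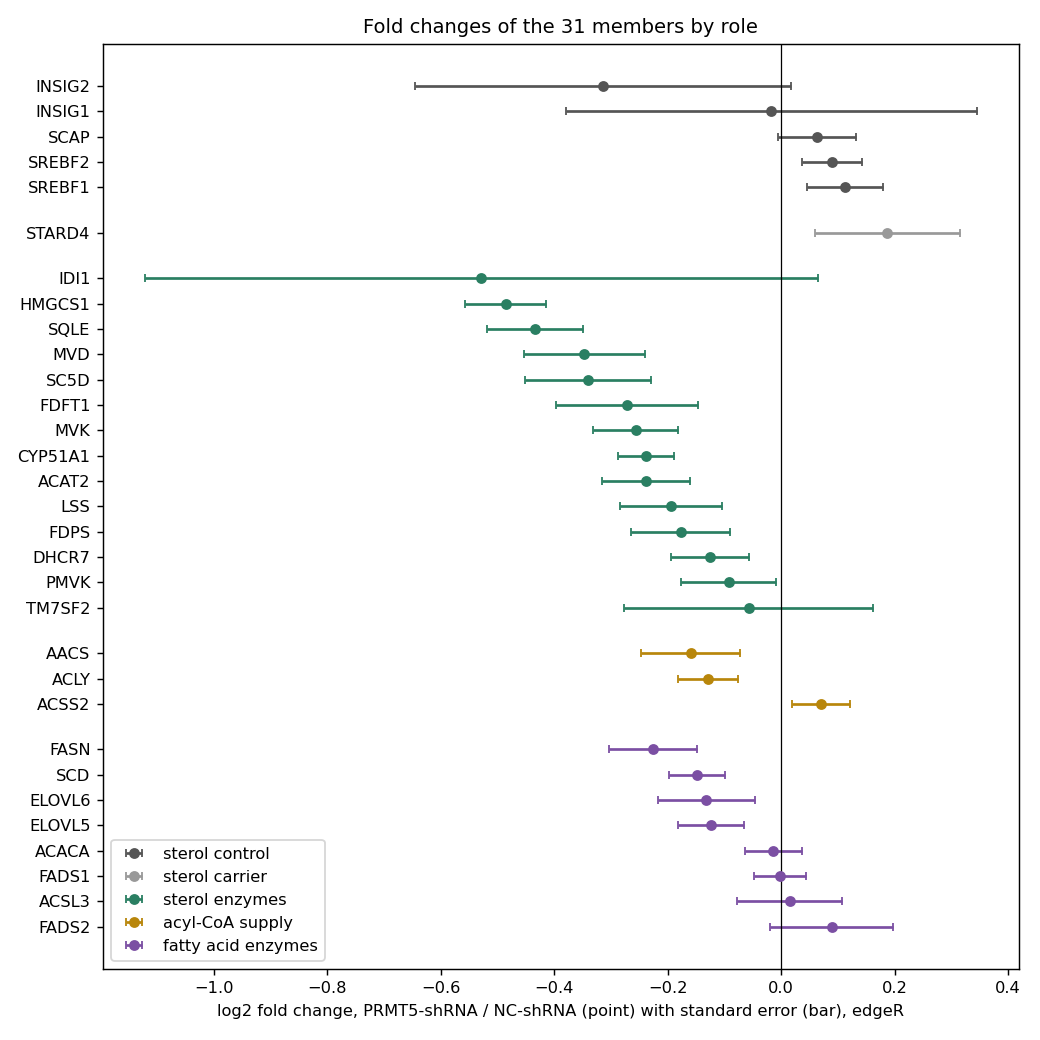
Log2 fold change of each of the 31 members, PRMT5-shRNA over NC-shRNA, with its standard error from edgeR as the bar, grouped and coloured by role. All 14 sterol enzymes have points left of 0, from −0.53 to −0.06, while the 8 fatty acid enzymes run from −0.23 to 0.09 and the points of SREBF1, SREBF2 and SCAP lie right of 0.

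Set side by side, the sterol enzymes were further below their NC-shRNA means than the fatty acid enzymes in each of the 3 PRMT5-shRNA libraries. The median over the 14 sterol enzymes of log2 of the CPM over the NC-shRNA mean was 0.11, −0.01 and −0.10 in NC-shRNA and −0.21, −0.22 and −0.33 in PRMT5-shRNA libraries. The same median over the 8 fatty acid enzymes was −0.00, 0.02 and −0.01 against −0.03, −0.09 and −0.08. Neither set of library medians overlapped between groups, and the PRMT5-shRNA values of the sterol enzymes were each below all those of the fatty acid enzymes. The difference between the sterol and the fatty acid lists was not tested, and counts per list (7 of 14 and 2 of 8 at an unadjusted edgeR p under 0.05) are descriptions, of which the second became 0 in some settings as given above. The sterol median stayed between −0.30 and −0.17 over the 16 alternative settings and the fatty acid median between −0.11 and −0.01.

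In level per length, SCD led the 31 members at 259 ± 4.07 FPKM (SD, n = 3) in NC-shRNA and 244 ± 7.54 FPKM in PRMT5-shRNA cells, followed by ACLY at 87.7 ± 0.419 and 83.6 ± 3.24 FPKM. FDPS (63.7 ± 6.14 FPKM in NC-shRNA) and ELOVL5 (58.0 ± 4.58 FPKM) came next and did not differ beyond their spread, nor did CYP51A1 at 55.4 ± 0.416 FPKM from ELOVL5. FASN was at 42.4 ± 2.17 FPKM, HMGCS1 at 22.1 ± 1.37 FPKM in NC-shRNA and 16.5 ± 0.0755 FPKM in PRMT5-shRNA cells, SREBF2 at 18.4 ± 0.941 FPKM and SREBF1 at 7.05 ± 0.367 FPKM. The members that were lower in every PRMT5-shRNA library thus ranged in NC-shRNA from SC5D at 3.98 ± 0.385 FPKM to SCD.

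**Figure D4:**
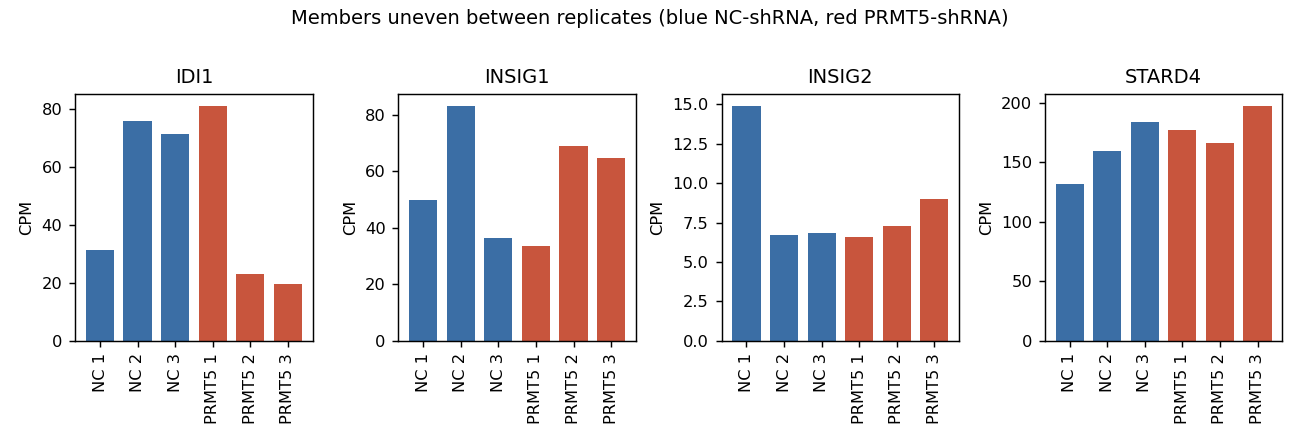
CPM in each of the 6 libraries for IDI1, INSIG1, INSIG2 and STARD4, with NC-shRNA in blue and PRMT5-shRNA in red, on axes from 0. Within a group IDI1 and INSIG1 differ at least 2.04 times between replicates, and the lowest library of each group is not the same for both genes.

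Of the later sterol pathway outside the members, 6 genes were read, which are not all of its enzymes and include TMEM97 and the scaffold ERG28, so their counts do not describe the pathway as a whole. Of these 6, 5 had an unadjusted edgeR p under 0.05, all lower (background 6.29%), 6 were lower in every PRMT5-shRNA library in CPM (background 10.7%), and the median log2 fold change was −0.33. None passed edgeR's adjusted threshold, and DESeq2 called 3 lower (background 1.36%). EBP, a sterol isomerase, was at 113, 97.6 and 102 CPM in NC-shRNA and 75.8, 79.5 and 70.8 CPM in PRMT5-shRNA libraries (log2 fold change −0.47, SE 0.0795, edgeR adjusted p = 0.15). NSDHL, a sterol dehydrogenase, was at 104, 87.0 and 80.5 CPM against 62.5, 64.5 and 57.2 CPM, with a log2 fold change of −0.56 (SE 0.108, edgeR adjusted p = 0.178). Both genes were clearly apart between groups. TMEM97, a regulator of cellular cholesterol, had a log2 fold change of −0.41 (SE 0.091, edgeR adjusted p = 0.198).

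Genes around the pathway were counted at the same unadjusted threshold, which 6.54% of all genes passed as higher and 6.29% as lower. Of 15 genes of SREBP transport and processing, 1 had an unadjusted edgeR p under 0.05, SEC24C of the vesicle coat, lower at −0.22 (SE 0.0737), and the list's median was −0.04. Of 11 genes of the mevalonate branches to isoprenoids, 1 did, FNTB, a farnesyltransferase subunit, lower at −0.66 (SE 0.227), with a median of −0.13. FNTB shares exon sequence with the readthrough gene CHURC1-FNTB, which is listed at 0 counts. Of 22 tested genes among 24 for other fatty acid synthesis, elongation and desaturation, 2 were higher and 2 lower at that threshold, with a median of −0.08, and DESeq2 called 1 lower after adjustment, ELOVL3 (background 1.36%). None of this list passed edgeR's adjusted threshold. The elongase ELOVL3 was lower (−0.51, SE 0.104, edgeR adjusted p = 0.184, DESeq2 adjusted p = 0.0035). The elongase ELOVL7 (0.64, SE 0.178) and the acyl-CoA synthetase ACSL1 (0.43, SE 0.121) were higher in log2 fold change, each with an edgeR adjusted p of 0.259.

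Glycerolipid synthesis, with 12 genes, had 0 genes at an unadjusted edgeR p under 0.05, 0 called by edgeR or DESeq2 after adjustment, and a median log2 fold change of −0.01. Fatty acid oxidation, with 18 genes, had a median of −0.07 and 3 lower genes at that threshold, ECHS1 (−0.27, SE 0.0825), DECR1 (−0.31, SE 0.0983) and CPT2 (−0.23, SE 0.0927).

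Of 8 genes of sterol efflux and the liver X receptors, 1 had an unadjusted edgeR p under 0.05. ABCG1, a transporter that exports sterols, was higher in every PRMT5-shRNA library, at 1.36, 2.42 and 2.32 CPM in NC-shRNA and 6.19, 6.81 and 8.14 CPM in PRMT5-shRNA libraries. Its log2 fold change was 1.79 (SE 0.252, unadjusted edgeR p = 2.02e-04, adjusted p = 0.102, exact permutation p = 0.1), and DESeq2 gave an adjusted p of 4.11e-08. Over the 16 alternative settings the ABCG1 log2 fold change lay between 0.65, on log2(FPKM + 1), and 1.94. ABCA1, named after its values were seen, was at 0.819, 2.09 and 1.71 CPM against 2.77, 2.14 and 3.60 CPM, with a log2 fold change of 0.88 (SE 0.373, edgeR adjusted p = 0.391). It was 0.12 to 1.17 over the alternative settings, and 0.58 without NC-shRNA replicate 1. The list's median was −0.00.

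**Figure D5:**
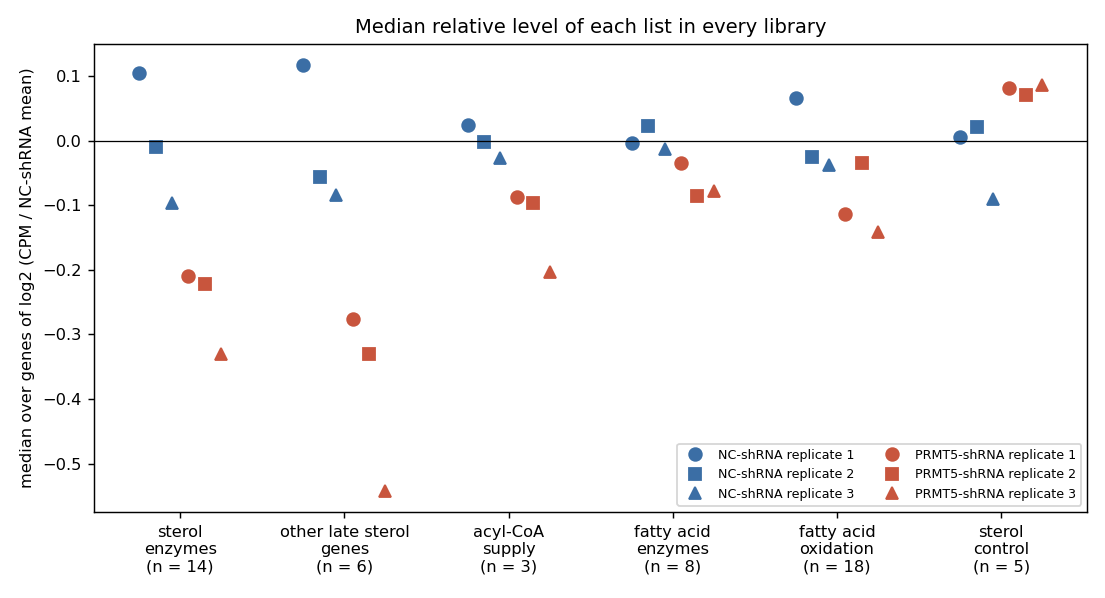
Median over the genes of a list of log2 of the CPM over the NC-shRNA mean, in each of the 6 libraries, for 6 lists with the number of genes below each. Blue marks are NC-shRNA and red marks PRMT5-shRNA libraries, with 1 shape per replicate. The sterol enzymes and the other late sterol genes outside the members reach −0.33 and −0.54 in PRMT5-shRNA replicate 3, and the fatty acid enzymes stay at −0.09 or above.

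Cell type markers were read beside these values. All 5 epithelial markers were measured, and their summed level was 1467 to 1644 CPM in NC-shRNA and 1333 to 1353 CPM in PRMT5-shRNA libraries, carried by KRT8 and KRT18, while EPCAM held 65 to 105 counts and CDH1 40 to 121 counts per library. KRT8 had a log2 fold change of −0.23 (SE 0.0622, edgeR adjusted p = 0.251), close in size to the sterol enzyme median. Of 5 endothelial markers, 4 were tested and all 4 were higher in every PRMT5-shRNA library (background 11.0%), with a summed level of 9.74 to 10.9 CPM against 14.9 to 18.5 CPM. VWF was listed at 0 in all NC-shRNA libraries and at 105 to 128 counts in PRMT5-shRNA libraries, and its edgeR adjusted p was 0.0341, and KDR was also at 0 in NC-shRNA. The summed fibroblast markers lay at 108 to 134 CPM against 96.9 to 117 CPM with COL1A2 at 0 in every library, a sum carried by DCN (log2 fold change −0.24), while the other 3 tested markers had positive log2 fold changes and PDGFRB was higher in every PRMT5-shRNA library (0.57, SE 0.146). The blood markers lay at 2.74 to 3.45 CPM against 3.39 to 4.02 CPM with CD3E at 0, and the adipocyte markers at 0.483 to 0.793 CPM against 0.476 to 1.10 CPM with LEP at 0. The part of these markers in the results on the members was not tested.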

How the data were processed

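NCI-H460 libraries (TruSeq Stranded mRNA, Illumina, per the study's methods) were grouped by the sample labels. The submitters' processing notes name cutadapt 1.9, HISAT2 2.0.4, StringTie 1.3.4d and GRCh38. The study's methods also name HISAT2 and StringTie, add Ballgown, and give the human reference the name of a mouse assembly. The authors deposited estimated counts per gene and library without normalization, and FPKM, normalized for gene length and library size. How counting treated strand and overlapping genes is not given in the sources used here. The estimated counts were whole numbers, so rounding changed nothing. Low counts gathered at 4 (1214 to 1319 genes per library had exactly 4, against 462 to 546 with 3 and 283 to 308 with 5). Totals are therefore not numbers of fragments, and their size alone does not give the precision. Library totals were 69606034, 70518401 and 62125927 in NC-shRNA and 53531257, 69077084 and 56507279 in PRMT5-shRNA.

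Counts were scaled by TMM, filtered by filterByExpr and tested with edgeR 4.0.16 (quasi-likelihood test, R 4.3.3), with Benjamini-Hochberg adjustment over 20295 genes. Standard errors came from the F statistic. CPM used the TMM-scaled totals. An exact two-sided permutation test over the 6 libraries gave 0.1 for every member whose groups did not overlap, the smallest that 3 against 3 libraries allow. The members and lists were chosen with earlier results of these data known, and no list was tested. All 31 members are named. Values in every library are given for members without overlap between groups, SREBF1, SREBF2, INSIG1, INSIG2 and the member with the largest spread. Up to 3 genes per other list were named by smallest p among those under 0.05. Values in every library for STARD4, FDPS, EBP, NSDHL and ABCG1, the results for ABCA1 and the counts of groups without overlap in FPKM were added after the values were seen. A gene of the later sterol list is not reported here, and that list's counts and medians are without it. Alternatives were RLE and upper quartile scaling, no filter or 10 counts in every library, DESeq2 1.42.0, limma 3.58.1 on log2(FPKM + 1) or log2(FPKM + 0.1) with a mean FPKM of at least 0.5 or no filter, a replicate block, removal of a length trend, and leaving out each library. The fits were tested on simulated data. No 2 libraries of a group held the same values, and all were kept as separate replicates (chi-square per degree of freedom 43.3 to 63.3 if each count were a fragment, which they are not). Exon overlaps and positions came from GENCODE release 29 of GRCh38, in which 4 members overlap another gene's exons on the same strand, 12 only on the other strand and 15 not at all.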

Additional observations from a re-analysis of the deposited data

How the results depend on the processing

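The sterol enzyme median kept its direction under all 16 alternatives and lay between −0.30 and −0.17. DESeq2 called 303 genes higher and 227 lower over all genes, and 3 members lower, while limma on log2(FPKM + 1) without a filter called 1 gene higher. All 3 limma fits on FPKM put 3 members (ACSS2, SREBF1 and SREBF2) higher at an unadjusted p under 0.05. In both directions together, 2309 and 2298 of 14707 genes passed that threshold with a filter and 3085 of 32052 without one. The share on the higher side alone was not counted, so the 3 members have no background of their own direction. The same fits turned INSIG1, ACACA and FADS1 to positive log2 fold changes. With a pseudocount of 1, filtered or not, the fatty acid median was −0.0087, INSIG1 0.0535, ACACA 0.0436 and FADS1 0.0561, and with one of 0.1 they were −0.0081, 0.0574, 0.0458 and 0.0575. Over all genes, the filtered limma fits had a median log2 fold change of 0.039 with a pseudocount of 1 and 0.05 with one of 0.1. That median was 0.013 without a filter and 0.0075 in the main edgeR fit. The limma fits put 0 fatty acid enzymes at an unadjusted p under 0.05, against 2 by edgeR. With FPKM in place of CPM, a setting chosen after seeing the data, 5 members did not overlap between groups on the higher side, 1 of them a fatty acid enzyme, and 1 fatty acid enzyme did not on the lower side. Removing the length trend moved the fatty acid median to −0.11 and turned ACSL3 to −0.0228. The causes were not tested.

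With the replicate number as a block, edgeR called 0 genes higher and 0 lower over all genes (2382 of 20295 at an unadjusted p under 0.05), and PRMT5 kept its log2 fold change of −1.62 with an adjusted p of 0.144. The replicate numbers are not stated to pair the libraries. Same-numbered libraries' deviations from their group means correlated at 0.00122, −0.0388 and 0.064 over 10487 genes, and not every library correlated best with its own number. With 3 libraries per group such deviations depend on each other, so these correlations cannot decide whether the cultures were paired.

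Leaving out 1 library at a time gave 4 to 16 genes called higher and 3 to 10 lower. Members at an unadjusted p under 0.05 numbered 5 to 12 lower, with 5 without PRMT5-shRNA replicate 3 and 12 without NC-shRNA replicate 3. They numbered 0 to 1 higher, the 1 being STARD4 without NC-shRNA replicate 3. Over all genes, in either direction, 1963 of 21260 passed without PRMT5-shRNA replicate 3. Without NC-shRNA replicate 3 it was 2854 of 21288, and without NC-shRNA replicate 2 it was 2128 of 20896. These totals pool both directions and are no background for a single direction. Fatty acid enzymes at that threshold numbered 0 to 2 lower, with 0 without NC-shRNA replicate 2 or PRMT5-shRNA replicate 3. The fatty acid median ran from −0.0973 to −0.0498. Signs turned within the ranges of INSIG1 (−0.25 to 0.37), INSIG2 (−0.51 to 0.17), ACSL3 (−0.0834 to 0.0707), TM7SF2 (−0.23 to 0.0585), FADS1 (−0.0113 to 0.0107), FADS2 (−0.0251 to 0.16) and ACACA (−0.0335 to 0.0092). With 2 libraries left in a group, the fits borrow the spread from the other group. TM7SF2 had the fewest counts among the members, 144 to 257 per library.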
